A study of Mus musculus with 11 samples.

Results

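The translation initiation factors of the mouse, with the proteins that regulate them directly, were followed through 5 sorted populations on the path from endothelium to hematopoietic stem cells (HSCs). The members were all genes in the table whose symbol begins with Eif1 to Eif6, without Eif2ak2 and pseudogenes, and 58 of 37820 gene IDs met this rule. Of these, 53 encode initiation factors, their kinases or their repressors. The other 5 carry older Eif2c symbols that belong to the Argonaute genes, which act in small RNA silencing and not in initiation, and they were kept out of every count. Gene expression was measured by RNA-seq of poly(A)-selected RNA in 11 libraries, of which 3 are from pre-HSCs and 2 from each of the other populations (Endo, HE, FL HSC and BM HSC). The comparisons ask how gene expression changes from one population to the next as HSCs form and mature.

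Endo were CD31-positive arterial endothelial cells without Runx1:GFP, Kit, CD45 and CD41, and HE (hemogenic endothelium) were CD31-positive, Runx1:GFP-positive cells with low or no Kit and without CD45 and CD41, both from E10.5 embryos. Pre-HSCs, the precursors that cannot yet engraft an adult, were sorted from the major arteries by Kit, ESAM, Ly6a:GFP, CD31 and CD144, at E10.5 by the sample labels and at E11.5 by the methods of the study. FL HSCs were lineage-negative, Sca1-positive, Kit-positive, CD150-positive and CD48-negative cells of E14.5 fetal liver. BM HSCs were lineage-negative, Sca1-positive, Kit-positive and CD150-positive cells from bone marrow of mice aged 6-8 weeks. The supplementary methods of the study also give them as CD48-negative and CD135-negative, and its list of purified cells as CD34-negative. In the methods, the embryos for pre-HSCs came from young B6C3F1 females injected with gonadotropins to stimulate superovulation. No treatment is described for the other populations. The labels give the strain of all libraries as B6129SF1, whereas in the methods Endo and HE come from Runx1 reporter embryos and pre-HSCs from Ly6a:GFP embryos, with B6C3F1 and B6129SF1 parents or mice for FL and BM HSCs. Strain, gate, age, tissue and the gonadotropin injections therefore change along with the population and cannot be told apart. Cells of several embryos or mice were pooled, so the spread between libraries is that between pools.

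Initiation begins when eIF2, carrying GTP and the initiator methionyl-tRNA, binds the small ribosomal subunit together with eIF1, eIF1A, eIF3 and eIF5, while eIF4F brings the subunit to the capped end of the mRNA. Each round leaves eIF2 bound to GDP, and eIF2B exchanges it for GTP, the step that eIF2 kinases block under stress. Adult HSCs are known for low rates of protein synthesis and for being sensitive to changes in that rate.

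The authors deposited FPKM, fragments per kilobase of transcript scaled to all those mapped in a library, so that genes can be compared with each other on a per-length scale. Counts were not used here, so sequencing depth is unknown, and intervals for counting error are not given. For the tests, log2(FPKM + 1) of the 14708 genes that reached 1 FPKM in 2 or more libraries was fitted with limma. A gene passed the test, and is said to have risen or fallen, when its adjusted p was under 0.01 in the F test over the 5 populations and under 0.05 in the contrast of the pair. Of the 53 initiation factor genes, 51 were tested. Eif4e1b was listed at 0 in all 11 libraries and Eif4e3 reached no more than 0.308 FPKM, so neither entered the fit. An exact 0 in this table can be a failed estimate, since the core splicing gene Prpf8 is listed at 0 in 1 pre-HSC library.

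The summed FPKM of 6 endothelial markers was 1221 to 1643 in the Endo, HE and pre-HSC libraries and 81.9 to 91.9 in the FL and BM HSC libraries, while that of 6 hematopoietic markers was 3.08 to 15.8 in Endo and HE, 64.5 to 79.7 in pre-HSCs and 406 to 629 in FL and BM HSCs. Transcripts of other cell types were present as well. The 6 erythroid markers summed to 3094 to 4378 in Endo and HE, 198 to 301 in pre-HSCs, 136 to 253 in FL HSCs and 21.1 to 30.9 in BM HSCs. The 6 macrophage markers found in the table summed to 4.09 to 10.1 in Endo and HE, 197 to 1078 in pre-HSCs, 107 to 369 in FL HSCs and 108 to 131 in BM HSCs, and 5 mural and mesenchymal markers summed to 1026 to 1078 in HE against 2.62 to 408 in the other libraries. The 5 germ cell markers were at 129 to 194 in Endo and listed at 0 in all BM HSC libraries. These sums move with the populations, and their part in the changes described here was not tested. In bulk RNA, fewer cells of a type and less RNA per cell cannot be told apart.

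Taken as a share of all FPKM, the 53 genes held 1.14% and 1.23% of Endo, 1.16% and 1.16% of HE, 1.05%, 1.06% and 1.02% of pre-HSC, 1.27% and 1.24% of FL HSC and 1.04% and 1.02% of BM HSC libraries. The libraries of FL HSCs were thus the highest, and those of pre-HSCs and BM HSCs the lowest, with no overlap between FL HSCs and either neighbor. Levels of single genes spanned a wide range. Eif5a was the most abundant, at a mean of 844 ± 86.1 FPKM in pre-HSCs (SD, n = 3) and 1819 ± 491 in FL HSCs (SD, n = 2). Next were Eif4a1 and Eif1 in Endo, at means of 829.8 ± 127 (SD, n = 2) and 508 ± 58.7 FPKM (SD, n = 2). The eIF2 kinases and Eif5a2 were among the least abundant of the genes tested, with library values of no more than 24.2 and 4.43 FPKM. The mean was highest in FL HSCs for 25 of the 51 genes, in Endo for 16, in BM HSCs for 7, in pre-HSCs for 2 and in HE for 1.

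**Figure D1:**
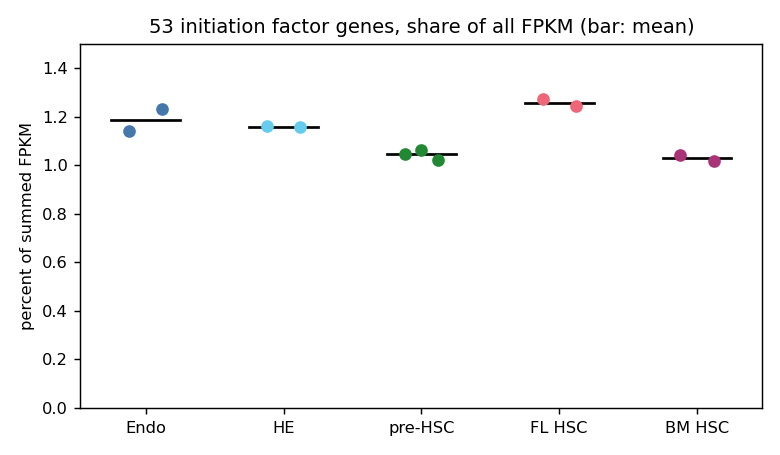
Summed FPKM of the 53 initiation factor genes as a percent of all FPKM (vertical axis) in each of the 11 libraries (points), by population, with bars at the means. The FL HSC libraries lie at 1.27% and 1.24% and the pre-HSC libraries between 1.02% and 1.06%.

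Of the 51 genes, 26 passed the test between at least 1 pair of neighboring populations and 25 between none. A dip at the pre-HSC was seen in 10 genes, which fell from HE to pre-HSCs and rose again into FL HSCs. They were Eif2b2, Eif2b4, Eif2b5, Eif3b, Eif3d, Eif3g, Eif4a3, Eif4ebp1, Eif5a and Eif6, and 7 of them (all but Eif2b2, Eif4ebp1 and Eif6) fell once more into BM HSCs. Both calls, the fall and the rise, held under each of 3 other scalings of the libraries for 4 of the 10 (Eif2b2, Eif2b4, Eif3d and Eif3g), and for 2 of these, Eif2b2 and Eif2b4, also with each library left out. A further 8 genes rose only into FL HSCs and 5 fell only into BM HSCs. Eif2b1 rose into FL HSCs and fell into BM HSCs, Eif1 fell into pre-HSCs, and Eif2a rose into pre-HSCs and again into FL HSCs. Neighboring comparisons share the libraries of the population between them, so a high or low value there enters both. Of all genes, 10.3% fell into pre-HSCs, 21.5% rose into FL HSCs and 9.65% fell into BM HSCs. The share of all genes that took the same courses was not computed.

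**Figure D2:**
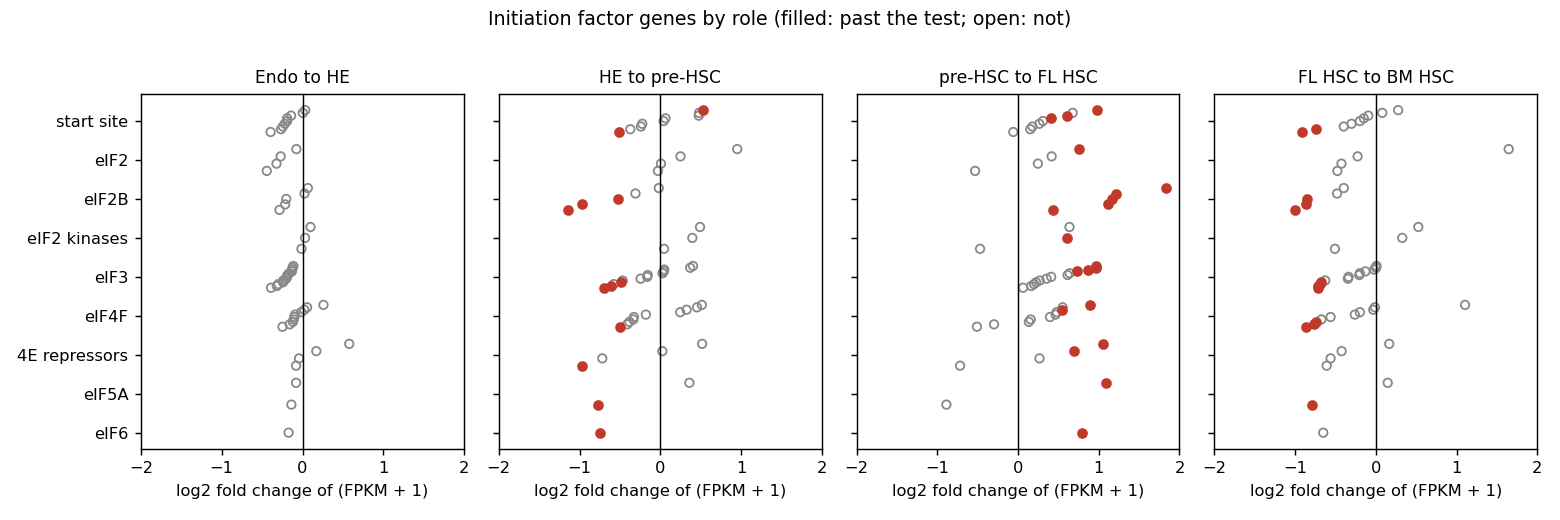
Log2 fold change of (FPKM + 1) (horizontal axis) of the 51 initiation factor genes in rows by role, for the 4 neighboring comparisons. Filled points passed the test and open ones did not. All 20 filled points from pre-HSC to FL HSC lie above 0 and all 13 from FL HSC to BM HSC below it, while none is filled from Endo to HE.

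Between Endo and HE, 0 of 51 genes passed limma's test, as against 0.129% of all genes in either direction. At an unadjusted p under 0.05 there were 4, all lower in HE, beside 8.27% of all genes that met this rule in either direction. These 4 were Eif2s1, Eif2s2, Eif3e and Eif5. Of these, Eif2s1 was measured in Endo at 51.9 and 42.4 FPKM and in HE at 33.8 and 41.2, and Eif2s2 in Endo at 95.7 and 82 FPKM and in HE at 62.4 and 67.6. The fold change was below 0 for 40 of the 51 genes, with a median log2 fold change of -0.14 beside 0.03 over all genes. After the FPKM of each library were scaled to equal totals, the median of the 51 genes was -0.03, beside 0.11 over all genes.

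From HE to pre-HSCs, 11 genes fell and 1 rose. The 11 are 21.6% of the 51 genes, against 10.3% of all genes that fell, and the 1 is 1.96% against 13.4% that rose. The largest falls were those of Eif2b2, Eif2b4, Eif4ebp1, Eif5a, Eif6 and Eif3g, in this order, and only Eif2b2 fell at least 2-fold on the log2(FPKM + 1) scale, beside 4.34% of all genes. Over all genes, 1508 fell with every library in the fit, 1024 without pre-HSC 1, 967 without pre-HSC 2 and 1168 without pre-HSC 3. The number of the 51 genes that fell rested on single libraries. It was 2 without HE 1, 2 without pre-HSC 1, 2 without pre-HSC 2 and 5 without pre-HSC 3, and Eif2b2 and Eif2b4 fell in each of the 11 fits that left out 1 library. With other scalings of the libraries it was 7 down and 1 up (equal totals), 7 down and 2 up (quantile) and 13 down and 1 up (median ratio). In the same order, all genes gave 1019 down and 2064 up, 2039 down and 1590 up, and 1953 down and 1672 up. The median log2 fold change over the 51 genes was -0.16, beside 0.09 over all genes, and with equal totals it was 0.01 beside 0.22.

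From pre-HSCs to FL HSCs, 20 genes rose and 0 fell, where limma gave 28 above and 4 below 0 at an unadjusted p under 0.05, a rule that 56.6% of all genes met in either direction. The 20 are 39.2% of the genes, against 21.5% of all genes that rose and 18.6% that fell. Of these, 6 rose at least 2-fold, namely Eif2b4, Eif2b2, Eif2b1, Eif2b3, Eif5a and Eif4ebp2, in order of size, beside 11.1% of all genes. The libraries of the pair did not overlap for 38 of the 51 genes, where those of 67.5% of all genes did not. The median log2 fold change was 0.44, beside 0.11 over all genes, and it stayed above that of all genes with equal totals (0.20 beside -0.09). The count was 12 without pre-HSC 1 and 12 without pre-HSC 2. Over all genes, 3162 rose with every library in the fit, 2501 without pre-HSC 1 and 2499 without pre-HSC 2. Of the 51 genes, 11 rose with equal totals, 14 with quantile normalization, and 12 rose with 1 down after division by the median ratio. In the same order, 2047, 3223 and 2295 of all genes rose. Past the test in each of these scalings and with each library left out were Eif2b1, Eif2b2, Eif2b3, Eif2b4, Eif2s3x, Eif3b and Eif4b.

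From FL HSCs to BM HSCs, 13 genes fell and 0 rose, where limma gave 25 lower and 3 higher at an unadjusted p under 0.05, a rule that 36.6% of all genes met in either direction. The 13 are 25.5% of the genes, beside 9.65% of all genes that fell and 9.74% that rose. None of the 13 fell 2-fold on the log2(FPKM + 1) scale, beside 4.07% of all genes. Eif2b4, Eif1ax, Eif2b5, Eif4e2, Eif2b1 and Eif5a fell the most. The median log2 fold change was -0.40, beside 0 over all genes. With only the 4 FL and BM HSC libraries in the fit, 0 genes passed and 18 had an unadjusted p under 0.05. The number that fell was 6 without pre-HSC 1 and 7 without pre-HSC 2. Over all genes, 1420 fell with every library in the fit, 1088 without pre-HSC 1 and 1167 without pre-HSC 2. A fit without an FL or BM HSC library leaves 1 library in that population. There the median log2 fold change of the 51 genes was -0.37 without FL HSC 1 and -0.40 without FL HSC 2. It was -0.36 without BM HSC 1 and -0.43 without BM HSC 2. Eif2b4 and Eif2b1 passed in every fit that left out 1 library.

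Replicates differed along with gene length in this set of genes. The 51 genes have a median of 3209 bases in merged exons. In the genes at or below this length FL HSC 1 was 1.27 times FL HSC 2 at the median, and in the longer ones 0.880 times, with a Spearman rho of -0.48 between the log2 ratio and length across genes. For HE 1 over HE 2 the medians were 1.14 and 0.849 (rho -0.65), and for BM HSC 1 over BM HSC 2 they were 0.882 and 1.09 (rho 0.41). Genes are not independent replicates, and the part of this in the fold changes was not tested.

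The clearest course was that of eIF2B, the exchange factor for eIF2. Its regulatory subunits are encoded by Eif2b1 (alpha), Eif2b2 (beta) and Eif2b4 (delta) and its catalytic ones by Eif2b3 (gamma) and Eif2b5 (epsilon). The FPKM of the 5 genes together were 327 to 360.2 in Endo, 309 to 351 in HE, 182 to 193 in pre-HSCs, 375 to 504 in FL HSCs and 281 to 285 in BM HSCs, so that the libraries of pre-HSCs lay below and those of FL HSCs above all others. From HE to pre-HSCs 3 of 5 fell, from pre-HSCs to FL HSCs 5 of 5 rose, and from FL HSCs to BM HSCs 3 of 5 fell, beside 13.4% of all genes that rose and 10.3% that fell into pre-HSCs, 21.5% and 18.6% into FL HSCs, and 9.74% and 9.65% into BM HSCs. Under each of the 3 other scalings 4 of 5 rose into FL HSCs, all but Eif2b5, and with equal totals 2 of 5 fell into pre-HSCs.

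Eif2b4 (chr5:31489931-31495803 in mm9, minus strand) was measured in Endo at 39.5 and 37.3 FPKM, in HE at 47.2 and 34.2, in pre-HSCs at 23.1, 18.9 and 18.5, in FL HSCs at 78 and 69.7 and in BM HSCs at 36.1 and 36.8. Its pre-HSC libraries were the lowest of all and its FL HSC libraries the highest, with no overlap between any neighbors from HE onward. The log2 fold change was -0.97 (SE 0.16, limma's adjusted p = 0.00252) from HE to pre-HSCs, 1.83 (SE 0.16, limma's adjusted p = 1.06e-05) into FL HSCs and -0.996 (SE 0.17, limma's adjusted p = 0.0036) into BM HSCs. The second of these, a ratio of means of 3.66, was the largest change past the test of any initiation factor. Eif2b4 overlaps Snx17 on the opposite strand, and the sources used here do not say whether the counting used strand.

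Eif2b2 (chr12:86560431-86567578, plus strand), the most abundant of the subunits, was measured in Endo at 184 and 171 FPKM, in HE at 197 and 166, in pre-HSCs at 73.1, 81.3 and 89.6, in FL HSCs at 228 and 158 and in BM HSCs at 155 and 133. All 3 pre-HSC libraries were below every other library, and those of the remaining populations overlapped in part. It fell into pre-HSCs by 1.15 on the log2 scale (SE 0.17, limma's adjusted p = 0.00178) and rose into FL HSCs by 1.22 (SE 0.17, limma's adjusted p = 0.000298).

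Eif2b1 (chr5:125020222-125029140, minus strand) was measured in Endo at 55 and 49.5 FPKM, in HE at 45.3 and 45.3, in pre-HSCs at 37.6, 35.1 and 36.5, in FL HSCs at 96.6 and 71.4 and in BM HSCs at 41.4 and 50.1. The FL HSC libraries lay above all others and those of pre-HSCs below, with log2 fold changes of 1.17 (SE 0.15, limma's adjusted p = 0.000132) from pre-HSCs and -0.85 (SE 0.16, limma's adjusted p = 0.0054) to BM HSCs. Eif2b3 (chr4:116692007-116759911) was measured in Endo at 28.7 and 28 FPKM, in HE at 22.6 and 23.6, in pre-HSCs at 22.1, 26.4 and 20.3, in FL HSCs at 58.8 and 43.6 and in BM HSCs at 33.1 and 39.3. It was again highest in both FL HSC libraries, with a rise of 1.12 (SE 0.16, limma's adjusted p = 0.000346). The step from FL to BM HSCs did not pass for Eif2b3 (-0.48, limma's adjusted p = 0.0793).

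The catalytic Eif2b5 (chr16:20498890-20510028, plus strand) took a course of its own within the complex. It was measured in Endo at 52.9 and 40.5 FPKM, in HE at 39.3 and 40.2, in pre-HSCs at 25.6, 28.3 and 28.4, in FL HSCs at 42.6 and 32.9 and in BM HSCs at 18.8 and 21.5. The values of pre-HSCs lay below those of FL HSCs without overlap, but FL HSCs reached no higher than Endo, and both BM HSC libraries were the lowest of all. Eif2b5 fell into pre-HSCs (-0.52), rose into FL HSCs (0.44) and fell into BM HSCs (-0.86, limma's adjusted p = 0.00666). The first was lost without HE 1, HE 2, pre-HSC 1, pre-HSC 2 or pre-HSC 3, at log2 fold changes of -0.54 to -0.47 with 1 library left out, and also with equal totals. The second was lost without HE 1, HE 2, pre-HSC 1, pre-HSC 2, pre-HSC 3 or FL HSC 1, at log2 fold changes of 0.26 to 0.62 with 1 library left out, and under each of the 3 other scalings. The third was lost without FL HSC 1, at log2 fold changes of -1.05 to -0.68 with 1 library left out. From HE to BM HSCs Eif2b5 fell by 0.95 (SE 0.17, limma's adjusted p = 0.00096), in every fit that left out 1 library, whereas Eif2b3 rose by 0.62 (SE 0.18, limma's adjusted p = 0.0125) and Eif2b1, Eif2b2 and Eif2b4 did not pass. The rise of Eif2b3 was lost without HE 1 or BM HSC 2, at log2 fold changes of 0.50 to 0.74 with 1 library left out, and also with the median ratio.

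**Figure D3:**
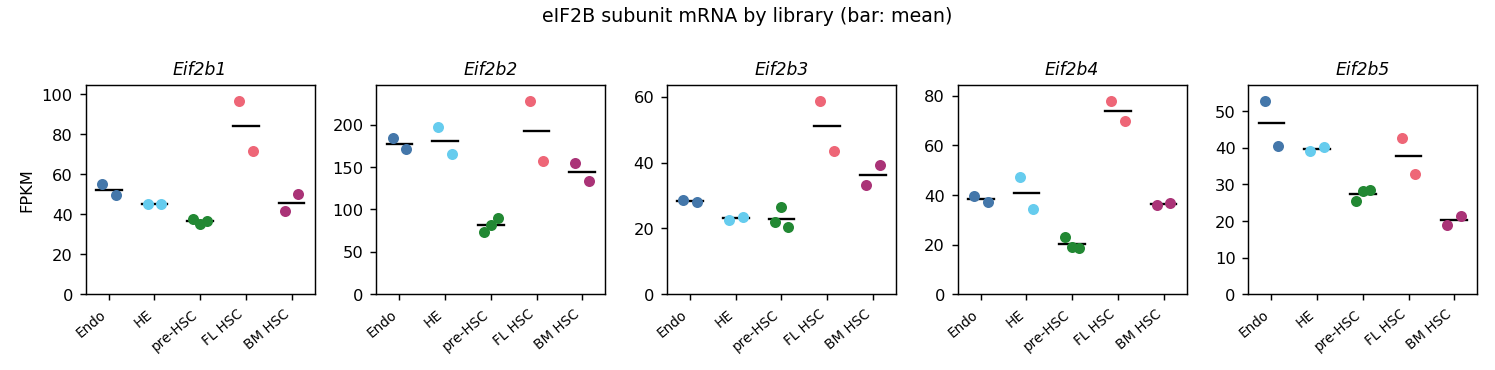
FPKM (vertical axis, from 0) of the 5 eIF2B subunit genes in each of the 11 libraries (points) by population, with bars at the means. The FL HSC libraries are the highest for Eif2b1, Eif2b3 and Eif2b4, whereas Eif2b5 is lowest in BM HSCs, at 18.8 and 21.5 FPKM.

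The ratio of Eif2b5 to Eif2s1, the substrate subunit alpha of eIF2, does not depend on library scaling. It was measured in Endo at 1.02 and 0.954, in HE at 1.16 and 0.976, in pre-HSCs at 0.697, 0.741 and 0.812, in FL HSCs at 0.861 and 0.673 and in BM HSCs at 0.522 and 0.63, at least 0.954 in all Endo and HE libraries and at most 0.861 in all others. It differed over the 5 populations in an exact permutation test of the F statistic, one-sided, with p = 0.00571 and an adjusted p of 0.0381 over the 11 ratios computed. That adjusted p was 0.0157 to 0.0873 when 1 library was left out, and over 0.05 in 8 of the 11 cases.

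Eif2b1, Eif2b2, Eif2b3 and Eif2b4 rose into FL HSCs under every scaling and Eif2b5 only as deposited, so the promoter letters nearest the start are shown for members of both kinds, from 130 bases before to 20 after the RefSeq start in GRCm38.p6, in the direction of transcription. Eif2b3 is named only. Capitals mark matches on either strand to the GC box GGGCGG, the ETS core CCGGAAG and the E-box CACGTG. The stretches are chr5:124579112-124579261 (minus strand), chr12:85219351-85219500 (plus), chr5:31193120-31193269 (minus) and chr16:20498687-20498836 (plus).
Eif2b1: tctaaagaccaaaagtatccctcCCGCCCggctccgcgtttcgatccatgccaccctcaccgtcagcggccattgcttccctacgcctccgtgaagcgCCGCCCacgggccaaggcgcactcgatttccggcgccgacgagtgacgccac
Eif2b2: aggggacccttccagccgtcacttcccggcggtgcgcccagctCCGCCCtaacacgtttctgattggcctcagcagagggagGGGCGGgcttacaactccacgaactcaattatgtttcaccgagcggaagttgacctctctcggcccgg
Eif2b4: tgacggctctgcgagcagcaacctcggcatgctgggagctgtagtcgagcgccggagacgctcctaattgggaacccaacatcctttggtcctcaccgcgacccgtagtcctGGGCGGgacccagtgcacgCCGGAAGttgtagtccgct
Eif2b5: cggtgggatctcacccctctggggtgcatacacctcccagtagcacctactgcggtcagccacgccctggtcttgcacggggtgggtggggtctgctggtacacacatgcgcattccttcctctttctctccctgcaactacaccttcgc
The genes of the regulatory subunits alpha, beta and delta each hold a GC box here, and Eif2b5 holds none of these 3 sets of letters. In the wider window of 250 bases before to 50 after the start, 72.7% of the 55 windows of 42 initiation factor genes hold a GC box, 34.5% the ETS core and 21.8% the E-box, beside 35.7%, 8.86% and 7.15% of all 32851 windows. The letters CCAAT, bound by NF-Y, are in 27.3% and in 37.4% of all windows, and the YY1 core AAGATGGC in 9.09% and 2.75%. The cyclic AMP element TGACGTCA and the stress element TGATGCAA are in 0 of the 55 windows, beside 1.79% and 0.895% of all. E-boxes are in the windows of 10 genes, among them Eif4a1, Eif4e, Eif4g1 and Eif5a, and in those of none of the 4 eIF2B genes. Such matches are a description of the letters and not of binding.

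Of the 4 genes for subunits of eIF2 itself, 1 rose into FL HSCs, beside 21.5% of all genes. None passed at another neighboring step in limma's test. Eif2s3x, the X-linked gene for the gamma subunit that binds the initiator tRNA, was measured in Endo at 79.4 and 76.9 FPKM, in HE at 57.6 and 72.6, in pre-HSCs at 75.8, 80.1 and 75.5, in FL HSCs at 127 and 135 and in BM HSCs at 89.9 and 105. Both FL HSC libraries were above all others. It rose into FL HSCs by 0.76 (SE 0.13, limma's adjusted p = 0.000898), with every library left out and under each scaling. The genes of the alpha and beta subunits, Eif2s1 and Eif2s2, passed in no comparison, with means of 35.1 to 49.2 FPKM from HE onward for Eif2s1 and of 65 to 78.3 for Eif2s2.

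Eif2s3y, the Y-linked copy of the gamma subunit gene, was measured in Endo at 8.15 and 8.25 FPKM, in HE at 7.04 and 8.48, in pre-HSCs at 14.8, 19.4 and 14, in FL HSCs at 3.38 and 30.3 and in BM HSCs at 49 and 25.8. FL HSC 1 lay far below FL HSC 2 and BM HSC 1 above BM HSC 2. The Y-linked genes Ddx3y, Kdm5d and Uty were at 2.02, 0.887 and 0.685 FPKM in FL HSC 1 and at 8.73, 5.16 and 3.58 in FL HSC 2. Xist, which is expressed from the inactive X chromosome of female cells, was at 20.1 in FL HSC 1 and 37.8 in FL HSC 2, and at 75.9 and 61.5 FPKM in BM HSC 1 and BM HSC 2, so that within both populations it was higher in the library with more of the Y-linked genes. The sex of the pooled animals was not used here. Eif2s3y varied along with other Y-linked genes between libraries of 1 population, and it passed in no comparison.

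The eIF2 kinases phosphorylate the alpha subunit and so block eIF2B. Eif2ak4 (GCN2, which senses uncharged tRNA) was measured in Endo at 3.57 and 5.97 FPKM, in HE at 4.01 and 6.29, in pre-HSCs at 6.62, 7.49 and 6.78, in FL HSCs at 10.2 and 12 and in BM HSCs at 15 and 13.4. The FL and BM HSC libraries were all above those of the 3 earlier populations. It rose into FL HSCs (0.61, limma's adjusted p = 0.0475), a call that was lost without pre-HSC 1, pre-HSC 2, pre-HSC 3, FL HSC 1, FL HSC 2, BM HSC 1 or BM HSC 2, at log2 fold changes of 0.50 to 0.71 with 1 library left out, and also with equal totals and with the median ratio. From HE to BM HSCs the rise was 1.33 (SE 0.25, limma's adjusted p = 0.00115) and held in every such fit. Eif2ak1 (HRI, which senses heme) was at 12.4 to 15.5 FPKM in HE and 21.7 to 24.2 in FL HSCs, and Eif2ak3 (PERK, of the endoplasmic reticulum) stayed between 4.35 and 9.56. Neither passed the test in any comparison. The contrast of Eif2ak1 into FL HSCs was 0.64 (limma's adjusted p = 0.00524), but its adjusted p in the F test was 0.0129.

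The 13 subunits of eIF3, the scaffold that holds the small subunit and its factors, did not move as one. From HE to pre-HSCs 3 of 13 fell (Eif3b, Eif3d and Eif3g), from pre-HSCs to FL HSCs 4 of 13 rose (these 3 and Eif3a), and from FL to BM HSCs 4 of 13 fell (the same 3 and Eif3l), beside 13.4% of all genes that rose and 10.3% that fell into pre-HSCs, 21.5% and 18.6% into FL HSCs, and 9.74% and 9.65% into BM HSCs. With each of the other scalings 3 of 13 rose into FL HSCs, without Eif3a. Between pre-HSCs and FL HSCs all 13 had a fold change above 0 as deposited, with a median log2 fold change of 0.41, but 4 were below 0 with equal totals, 5 with quantile normalization and 2 with the median ratio.

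Eif3b, a core subunit with an RNA recognition motif, was measured in Endo at 184 and 186 FPKM, in HE at 174 and 152, in pre-HSCs at 113, 116 and 117, in FL HSCs at 259 and 197 and in BM HSCs at 123 and 152. The pre-HSC libraries were the lowest and those of FL HSCs the highest, without overlap with any other library. Eif3b fell into pre-HSCs (-0.49, limma's adjusted p = 0.0356), a call that was lost without HE 1, HE 2, pre-HSC 1, pre-HSC 2 or pre-HSC 3, at log2 fold changes of -0.59 to -0.39 with 1 library left out, and also with equal totals and with quantile normalization. Its rise into FL HSCs of 0.96 (SE 0.15, limma's adjusted p = 0.00049) held in every fit, and its fall into BM HSCs (-0.72, limma's adjusted p = 0.0118) was lost without FL HSC 1 or BM HSC 1, at log2 fold changes of -0.92 to -0.52 with 1 library left out.

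Eif3g, which binds eIF3b in the complex, was measured in Endo at 299.5 and 235 FPKM, in HE at 251 and 200.5, in pre-HSCs at 132, 134 and 147, in FL HSCs at 330.1 and 219.8 and in BM HSCs at 161 and 168. Its course had the same low point, with log2 fold changes of -0.70 into pre-HSCs, 0.97 into FL HSCs and -0.71 into BM HSCs, at limma's adjusted p of 0.0223, 0.00206 and 0.0348. The last was lost without pre-HSC 1, pre-HSC 2, FL HSC 1, BM HSC 1 or BM HSC 2, at log2 fold changes of -1.002 to -0.42 with 1 library left out, and also with the median ratio. Eif3d, the cap-binding subunit, was measured in Endo at 177 and 147 FPKM, in HE at 157 and 141, in pre-HSCs at 95.5, 91.7 and 105, in FL HSCs at 198 and 159.9 and in BM HSCs at 99 and 124. It fell by 0.61, rose by 0.87 and fell by 0.68 on the log2 scale, at limma's adjusted p of 0.0173, 0.00117 and 0.0181. For both genes the calls into pre-HSCs were lost without HE 1, pre-HSC 1 or pre-HSC 2, and those into FL HSCs without pre-HSC 1 or pre-HSC 2. The calls into FL HSCs were lost at the F test, while the adjusted p of their contrasts stayed under 0.05. The fall of Eif3d into BM HSCs was lost without pre-HSC 1, pre-HSC 2, FL HSC 1 or BM HSC 1.

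Eif3a, the large subunit on which the complex is built, did not dip. It was measured in Endo at 51.8 and 76.1 FPKM, in HE at 47.6 and 65.5, in pre-HSCs at 77, 82.9 and 59.7, in FL HSCs at 108 and 136 and in BM HSCs at 131 and 113. All FL and BM HSC libraries were above all others. From HE to BM HSCs it rose by 1.11 (SE 0.24, limma's adjusted p = 0.00268), a call that was lost without HE 1, FL HSC 2 or BM HSC 1, at log2 fold changes of 0.89 to 1.34 with 1 library left out, and under each of the 3 other scalings. Without any of those libraries Eif3a did not pass the F test, while the adjusted p of its contrast stayed under 0.05. Its rise into FL HSCs (0.73, limma's adjusted p = 0.0186) was lost without HE 1, pre-HSC 3, FL HSC 2 or BM HSC 1, at log2 fold changes of 0.57 to 0.90 with 1 library left out, and under each of the 3 other scalings. Eif3l fell only into BM HSCs, from 167 and 131 FPKM to 85.4 and 97.2 (-0.70, limma's adjusted p = 0.0118), and was lost without Endo 1, HE 1, HE 2, pre-HSC 1, pre-HSC 2, pre-HSC 3, FL HSC 1, BM HSC 1 or BM HSC 2, at log2 fold changes of -0.87 to -0.52 with 1 library left out. The other 8 subunits passed in no comparison. Among these Eif3k and Eif3h were the most abundant, at 233 to 483 and 270.2 to 449 FPKM over the libraries. Eif3j, which has a near-identical copy, was the least, at 6.92 to 15.7 FPKM, and its level is uncertain where reads could not be placed uniquely.

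**Figure D4:**
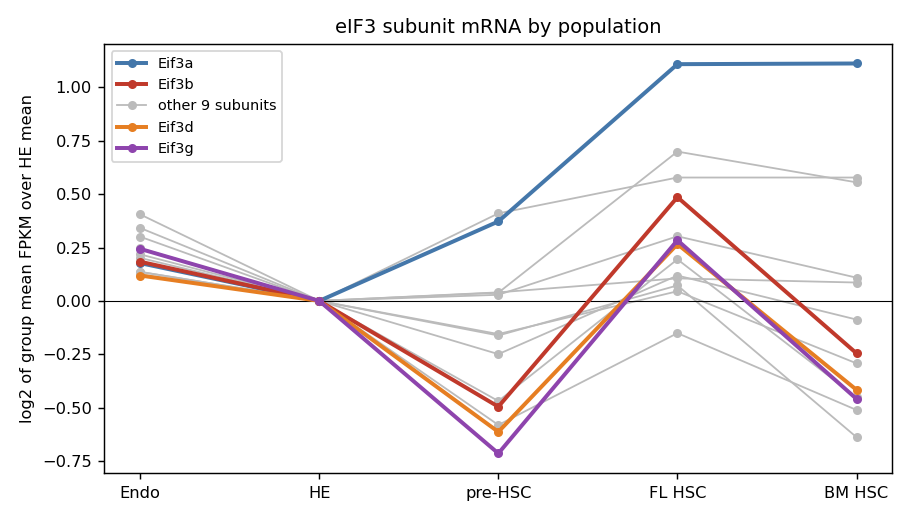
Log2 of the group mean FPKM over the HE mean (vertical axis) for the 13 eIF3 subunit genes by population (horizontal axis), each line 1 gene; libraries and their spread are not drawn. Eif3b, Eif3d and Eif3g are lowest in pre-HSCs and higher again in FL HSCs, while Eif3a stays high in BM HSCs.

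eIF4F joins the cap-binding eIF4E, the scaffold eIF4G and the RNA helicase eIF4A. The helicase paralogs Eif4a1 (chr11:69480438-69485925) and Eif4a2 (chr16:23107517-23114209) are both expressed in all 5 populations. Eif4a1 was measured in Endo at 919.5 and 740.2 FPKM, in HE at 790.1 and 740.2, in pre-HSCs at 559.7, 563 and 606, in FL HSCs at 683 and 585 and in BM HSCs at 403 and 354. It was highest in the endothelial populations and lowest in both BM HSC libraries, without overlap. It fell into BM HSCs by 0.74 on the log2 scale from FL HSCs (SE 0.16, limma's adjusted p = 0.0109) and by 1.02 from HE (SE 0.16, limma's adjusted p = 0.00048). The first was lost without FL HSC 1 and without BM HSC 2, and the second without BM HSC 2, where the log2 fold changes over all such fits were -0.85 to -0.63 and -1.11 to -0.92. The second was lost at the F test, while the adjusted p of its contrast stayed under 0.05.

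Eif4a2 was measured in Endo at 131 and 174 FPKM, in HE at 164 and 199, in pre-HSCs at 245, 244 and 194, in FL HSCs at 122 and 278 and in BM HSCs at 537 and 295. Both BM HSC libraries were above all others, but they lay far apart, as did those of FL HSCs, and no comparison passed (from HE to BM HSCs 1.14, limma's adjusted p = 0.0251). The ratio of Eif4a2 to Eif4a1 within a library was measured in Endo at 0.142 and 0.235, in HE at 0.208 and 0.268, in pre-HSCs at 0.437, 0.434 and 0.321, in FL HSCs at 0.178 and 0.476 and in BM HSCs at 1.33 and 0.833. Endo and HE libraries were at no more than 0.268, and only in a BM HSC library did Eif4a2 exceed Eif4a1. The ratio differed over the populations (exact permutation test of F, one-sided, p = 0.0218, adjusted p = 0.04 over 11 ratios), with a 5.77-fold spread from Endo to BM HSCs. With 1 library left out the adjusted p was 0.0157 to 0.149, over 0.05 in 8 of 11 cases. Small nucleolar RNAs are annotated within both genes on the same strand, and Eif4a2 also overlaps Rfc4 on the opposite strand.

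Eif4a3, the helicase of the exon junction complex, was measured in Endo at 206 and 176 FPKM, in HE at 190.1 and 162, in pre-HSCs at 119.5, 125 and 125, in FL HSCs at 201 and 162 and in BM HSCs at 91.3 and 123. It fell into pre-HSCs (-0.50), rose into FL HSCs (0.55) and fell into BM HSCs (-0.77), at limma's adjusted p of 0.0423, 0.017 and 0.0129. Each of these calls was lost without Endo 1, pre-HSC 1, BM HSC 1 or other single libraries and under at least 1 other scaling.

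Eif4b (chr15:101904204-101927603), the cofactor that stimulates the helicase, was measured in Endo at 142 and 160.2 FPKM, in HE at 135 and 147, in pre-HSCs at 164, 178 and 159, in FL HSCs at 303 and 316 and in BM HSCs at 273 and 337. The FL and BM HSC libraries were all far above the rest, and those of FL HSCs lay within the range of BM HSCs. Eif4b rose into FL HSCs by 0.89 (SE 0.13, limma's adjusted p = 0.000365) and from HE to BM HSCs by 1.10 (SE 0.14, limma's adjusted p = 0.000118), both in every scaling and with every library left out. Eif4h, a related cofactor, passed in no comparison and was at 177 to 359 FPKM.

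The cap-binding Eif4e was measured in Endo at 57.4 and 55.4 FPKM, in HE at 56.2 and 55.4, in pre-HSCs at 42.7, 44.6 and 44.9, in FL HSCs at 47.3 and 51.3 and in BM HSCs at 42.9 and 42.8. It was above the other populations in Endo and HE and passed in no comparison. Eif4e2 (4EHP), a cap-binding protein that does not bind eIF4G and so blocks initiation, was measured in Endo at 158 and 123 FPKM, in HE at 124 and 111, in pre-HSCs at 87.5, 85.4 and 96.6, in FL HSCs at 141 and 99.5 and in BM HSCs at 59.8 and 69.8. It fell into BM HSCs by 0.86 on the log2 scale (SE 0.19, limma's adjusted p = 0.0104), and this was lost without FL HSC 1 or BM HSC 1, at log2 fold changes of -1.11 to -0.62 with 1 library left out. The ratio of Eif4e2 to Eif4e did not pass (exact permutation test, adjusted p = 0.113).

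Of the scaffolds, Eif4g1, Eif4g2 and Eif4g3 passed in no comparison, but their proportions differed. Eif4g2 (DAP5) lacks the site for eIF4E, and its ratio to Eif4g1 was measured in Endo at 1.93 and 1.47, in HE at 1.28 and 1.64, in pre-HSCs at 2.58, 2.42 and 2.49, in FL HSCs at 1.11 and 1.45 and in BM HSCs at 2.02 and 1.71. The 3 pre-HSC libraries were above all others. The ratio of Eif4g3 to Eif4g1 was measured in Endo at 0.0982 and 0.122, in HE at 0.0944 and 0.122, in pre-HSCs at 0.216, 0.198 and 0.173, in FL HSCs at 0.168 and 0.234 and in BM HSCs at 0.278 and 0.213, lower in Endo and HE than in every other library. Both differed over the populations (exact permutation test of F, one-sided, adjusted p = 0.0381 for each), and the adjusted p exceeded 0.05 in 9 and 8 of the 11 cases with 1 library left out, reaching 0.0898.

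**Figure D5:**
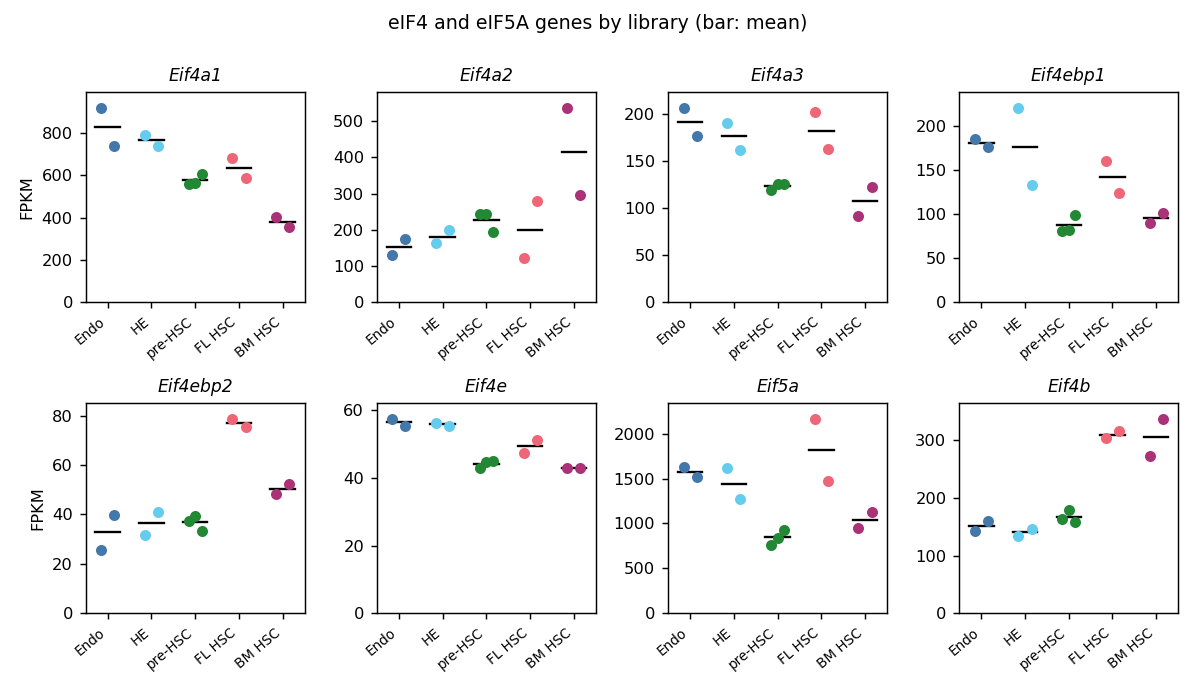
FPKM (vertical axes, from 0) of Eif4a1, Eif4a2, Eif4a3, Eif4ebp1, Eif4ebp2, Eif4e, Eif5a and Eif4b in each of the 11 libraries (points) by population, with bars at the means. Eif4a1 is lowest in BM HSCs where Eif4a2 is highest, Eif4b is at 273 or more in all FL and BM HSC libraries, and Eif5a is lowest in pre-HSCs.

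The 4E-BPs bind eIF4E and keep it from eIF4G until mTOR phosphorylates them. Eif4ebp1 (chr8:28370799-28386128) was measured in Endo at 185 and 176 FPKM, in HE at 220.1 and 132, in pre-HSCs at 80.9, 81.8 and 98.9, in FL HSCs at 160.4 and 124 and in BM HSCs at 89.5 and 102. The pre-HSC values were below those of Endo, HE and FL HSCs, while HE 1 and HE 2 lay far apart. Eif4ebp1 fell from HE to pre-HSCs by 0.97 on the log2 scale (SE 0.21, limma's adjusted p = 0.00917), a call that was lost without Endo 1, Endo 2, HE 1, pre-HSC 1 or pre-HSC 2, at log2 fold changes of -1.33 to -0.60 with 1 library left out. It rose into FL HSCs (0.69, limma's adjusted p = 0.02), which was lost without Endo 1, Endo 2, pre-HSC 1, pre-HSC 2 or FL HSC 1, at log2 fold changes of 0.51 to 0.88 with 1 library left out, and also with equal totals and with the median ratio.

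Eif4ebp2 was measured in Endo at 25.5 and 39.97 FPKM, in HE at 31.7 and 41, in pre-HSCs at 37.5, 39.5 and 33.5, in FL HSCs at 78.8 and 75.4 and in BM HSCs at 48.2 and 52.4. Its FL HSC libraries were the highest and those of BM HSCs next, both without overlap with the rest. It rose into FL HSCs by 1.05 (SE 0.19, limma's adjusted p = 0.00124), and this was lost without FL HSC 1 or FL HSC 2, at log2 fold changes of 0.98 to 1.10 with 1 library left out, and also with equal totals. In those 2 fits the adjusted p of the F test, 0.0138 at most, was over 0.01. The ratio of Eif4ebp2 to Eif4ebp1 was 0.138 to 0.31 in Endo and HE and 0.339 to 0.609 in the other populations, which did not pass (exact permutation test, adjusted p = 0.062), nor did that of Eif4ebp1 to Eif4e (adjusted p = 0.126). Eif4ebp3, which overlaps Ankhd1 on the same strand, was at or below 2.44 FPKM throughout. Eif4enif1, the transporter of eIF4E to the nucleus and to processing bodies, was at 23.4 to 53.8 FPKM and passed in no comparison.

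Among the 9 start-site and subunit-joining factors, 1 fell and 1 rose into pre-HSCs, 3 rose into FL HSCs and 2 fell into BM HSCs, beside 13.4% of all genes that rose and 10.3% that fell into pre-HSCs, 21.5% and 18.6% into FL HSCs, and 9.74% and 9.65% into BM HSCs. With equal totals 0 of the 9 rose into FL HSCs, and 1 did with quantile normalization and with the median ratio. Eif1, which keeps the scanning ribosome open until the start codon is found, was measured in Endo at 549.9 and 467 FPKM, in HE at 467 and 422, in pre-HSCs at 291, 325 and 318, in FL HSCs at 335 and 266 and in BM HSCs at 313 and 232. The Endo and HE libraries were all above the others. Eif1 fell into pre-HSCs (-0.51, limma's adjusted p = 0.048), but this was lost without Endo 1, Endo 2, HE 1, HE 2, pre-HSC 1, pre-HSC 2 or pre-HSC 3, at log2 fold changes of -0.59 to -0.44 with 1 library left out, and also with equal totals and with quantile normalization. From HE to BM HSCs the fold change was -0.72 (SE 0.18, limma's adjusted p = 0.00709), a call that was lost without Endo 1, HE 1, HE 2, pre-HSC 1 or BM HSC 2, at log2 fold changes of -0.93 to -0.50 with 1 library left out, and also with quantile normalization.

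Eif5, the GTPase activator of eIF2 that works against eIF1 at the start codon, did not pass in any comparison. The ratio of Eif5 to Eif1 was measured in Endo at 0.143 and 0.182, in HE at 0.114 and 0.171, in pre-HSCs at 0.315, 0.277 and 0.25, in FL HSCs at 0.262 and 0.416 and in BM HSCs at 0.288 and 0.354, at most 0.182 in every Endo and HE library and at least 0.25 in every other. It differed over the populations (exact permutation test of F, one-sided, adjusted p = 0.04), with an adjusted p of 0.0281 to 0.0898 when 1 library was left out and over 0.05 in 8 of those 11 cases. Eif1b, a close copy of Eif1, kept a ratio to Eif1 of 0.244 to 0.423 (adjusted p = 0.234 by the same exact test).

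Eif2a, which despite its name is no subunit of eIF2 and can bring initiator tRNA to some mRNAs, was measured in Endo at 34.3 and 31 FPKM, in HE at 25.2 and 28.8, in pre-HSCs at 42.8, 37.6 and 38.2, in FL HSCs at 49.3 and 56.1 and in BM HSCs at 63.4 and 64.6. It was the only gene of the set to rise at 2 steps, and the populations from HE onward did not overlap. The log2 fold change was 0.53 (SE 0.12, limma's adjusted p = 0.0116) into pre-HSCs, which was lost without HE 1 (limma's adjusted p = 0.117), and 0.40 (SE 0.12, limma's adjusted p = 0.0199) into FL HSCs, which was lost without pre-HSC 2, pre-HSC 3 or FL HSC 2, at log2 fold changes of 0.31 to 0.50 with 1 library left out, and under each of the 3 other scalings. From HE to BM HSCs it rose by 1.22 (SE 0.13, limma's adjusted p = 4.05e-05), and this held throughout.

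Eif5b, the GTPase that joins the subunits of the ribosome, was measured in Endo at 12.1 and 15.1 FPKM, in HE at 11.2 and 13.2, in pre-HSCs at 13.1, 13.7 and 11, in FL HSCs at 24.4 and 26.9 and in BM HSCs at 22.6 and 18.8. All FL and BM HSC libraries were above the others. Eif5b rose into FL HSCs by 0.98 (SE 0.16, limma's adjusted p = 0.000778) and from HE to BM HSCs by 0.72 (SE 0.18, limma's adjusted p = 0.00571), with every library left out, but neither passed with equal totals. Eif1a and the X-linked Eif1ax encode nearly the same protein, eIF1A, and their reads may be hard to separate. Eif1a was measured in Endo at 30.2 and 31 FPKM, in HE at 22 and 30.1, in pre-HSCs at 38.7, 39.3 and 31, in FL HSCs at 47.9 and 63.9 and in BM HSCs at 52.4 and 65.5. It rose from HE to BM HSCs by 1.16 (SE 0.20, limma's adjusted p = 0.000867). Eif1ax was measured in Endo at 139 and 105 FPKM, in HE at 103 and 104, in pre-HSCs at 98, 118 and 110.4, in FL HSCs at 151 and 120.1 and in BM HSCs at 76.4 and 65.4. It fell from FL to BM HSCs by 0.92 on the log2 scale (limma's adjusted p = 0.0055). That call was lost without HE 1, HE 2, pre-HSC 1, pre-HSC 2, pre-HSC 3, FL HSC 1, BM HSC 1 or BM HSC 2, at log2 fold changes of -1.08 to -0.76 with 1 library left out. In each of these losses the F test was not passed, while the adjusted p of the contrast stayed under 0.05. Between HE and BM HSCs, where Eif1a rose with every library left out and under each scaling, Eif1ax fell by 0.54 (SE 0.17, limma's adjusted p = 0.0207), and this was lost without HE 1, HE 2, pre-HSC 1, pre-HSC 2, pre-HSC 3, FL HSC 1, BM HSC 1 or BM HSC 2, at log2 fold changes of -0.66 to -0.43 with 1 library left out. Eif1ad fell into BM HSCs as well (-0.74, limma's adjusted p = 0.011), and was lost without Endo 1, Endo 2, HE 1, HE 2, pre-HSC 1, pre-HSC 2, FL HSC 1, BM HSC 1 or BM HSC 2, at log2 fold changes of -0.87 to -0.60 with 1 library left out, and also with equal totals. Eif2d passed in no comparison.

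Eif5a (chr11:69730216-69735460), whose product carries the amino acid hypusine and helps the ribosome through difficult peptide bonds, was measured in Endo at 1625 and 1522 FPKM, in HE at 1613 and 1267, in pre-HSCs at 758, 843 and 929.8, in FL HSCs at 2166 and 1471 and in BM HSCs at 951 and 1128. The 3 pre-HSC libraries were the lowest and those of BM HSCs next, and FL HSC 1 was above FL HSC 2 by more than the spread within any other population. Eif5a fell into pre-HSCs by 0.77 on the log2 scale (SE 0.21, limma's adjusted p = 0.0243), rose into FL HSCs by 1.09 (SE 0.21, limma's adjusted p = 0.00192) and fell into BM HSCs by 0.78 (SE 0.23, limma's adjusted p = 0.0354). The fall into pre-HSCs was lost without HE 1, pre-HSC 1, pre-HSC 2, pre-HSC 3 or BM HSC 1, at log2 fold changes of -0.94 to -0.59 with 1 library left out, and also with quantile normalization. The rise was lost without pre-HSC 1, pre-HSC 2, pre-HSC 3 or BM HSC 1, at log2 fold changes of 0.81 to 1.36 with 1 library left out, and also with quantile normalization. Where a left-out library ended the rise, the F test was not passed, while the adjusted p of the contrast stayed under 0.05. The second fall was lost without pre-HSC 1, pre-HSC 2, pre-HSC 3, FL HSC 1, BM HSC 1 or BM HSC 2, at log2 fold changes of -1.06 to -0.51 with 1 library left out, and also with quantile normalization and with the median ratio.

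Dohh, the hydroxylase that completes hypusine on eIF5A, was measured in Endo at 80.6 and 68.1 FPKM, in HE at 77.4 and 54.7, in pre-HSCs at 34.7, 34.2 and 36.2, in FL HSCs at 65.8 and 44.5 and in BM HSCs at 30.6 and 25.8. It too fell into pre-HSCs (-0.88, limma's adjusted p = 0.0104), rose into FL HSCs (0.61, 0.0248) and fell into BM HSCs (-0.92, 0.0136), though its FL HSC values did not return to the Endo level. Dhps, which acts before Dohh, passed in no comparison. The paralog Eif5a2 was at 1.34 to 4.43 FPKM, and its ratio to Eif5a differed over the populations (exact permutation test of F, one-sided, adjusted p = 0.0381), with all pre-HSC libraries above the others at 0.00278 to 0.00585. With 1 library left out the adjusted p was 0.0173 to 0.0873, over 0.05 in 9 of 11 cases.

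Eif6, which holds the large ribosomal subunit apart from the small one, was measured in Endo at 176 and 133 FPKM, in HE at 163 and 113, in pre-HSCs at 73.6, 80.2 and 88.8, in FL HSCs at 169 and 116 and in BM HSCs at 84.1 and 93.7. The pre-HSC and BM HSC libraries overlapped and were below all others. Eif6 fell into pre-HSCs by 0.74 on the log2 scale (limma's adjusted p = 0.0272) and rose into FL HSCs by 0.79 (limma's adjusted p = 0.0109), with the first lost without Endo 1, HE 1, pre-HSC 1, pre-HSC 2, pre-HSC 3, BM HSC 1 or BM HSC 2 (-1.003 to -0.48) and the second without Endo 1, pre-HSC 1, pre-HSC 2, pre-HSC 3, FL HSC 1, BM HSC 1 or BM HSC 2 (0.52 to 1.06), and also with the median ratio.

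Between HE and BM HSCs, the ends of the path, 8 genes were higher and 10 lower in BM HSCs. These are 15.7% and 19.6% of the 51 genes, beside 26.8% and 21.8% of all genes, so that a smaller share than of all genes was higher. The rises of at least 2-fold were those of Eif2ak4, Eif2a, Eif1a, Eif3a and Eif4b, and the only such fall was that of Eif4a1, beside 20.3% of all genes with such rises and 16.3% with such falls. With other scalings the split was 6 and 12 (equal totals), 7 and 8 (quantile) and 5 and 18 (median ratio). In the same order, the split of all genes was 3532 and 3021, 3373 and 3583, and 2992 and 3927. The total of 18 was 11 without pre-HSC 1, at 8 higher and 3 lower. All genes then gave 3445 higher and 2848 lower, beside 3938 and 3200 with every library in the fit. The median log2 fold change of the 51 genes was -0.09 with every library. It was -0.15 without HE 1, -0.23 without HE 2, -0.12 without BM HSC 1 and -0.15 without BM HSC 2. Eif1a, Eif2a, Eif2ak4, Eif2b5 and Eif4b held in each scaling and with each library left out.

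The Argonaute genes, known here as Eif2c1 to Eif2c5, are given apart. Eif2c1 was measured in Endo at 8.25 and 12.5 FPKM, in HE at 9.76 and 12.3, in pre-HSCs at 18.5, 16.7 and 15.2, in FL HSCs at 27.1 and 29.6 and in BM HSCs at 31 and 33.7. FL and BM HSCs were above all earlier libraries, and it rose from HE to BM HSCs by 1.48 (SE 0.20, limma's adjusted p = 0.000152). Eif2c4 was under 1 FPKM in all Endo, HE and pre-HSC libraries and at 3.88 and 2.82 in BM HSCs. Of the 4 tested, 1 rose into pre-HSCs, 1 into FL HSCs and 1 into BM HSCs, and 0 fell in limma's test, also at an unadjusted p under 0.05, beside 13.4% of all genes that rose and 10.3% that fell into pre-HSCs, 21.5% and 18.6% into FL HSCs, and 9.74% and 9.65% into BM HSCs. The rise of Eif2c1 into pre-HSCs was lost under each other scaling and without any 1 of 7 libraries, its rise into FL HSCs was lost with equal totals, and that of Eif2c4 into BM HSCs was lost without FL HSC 1 or BM HSC 1. Eif2c5 was listed at 0 throughout.

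The lists of neighboring pathways were chosen with earlier results of these data known. Of 21 tested genes of the mTOR and MNK axis, which sets the activity of eIF4E and its repressors, 4 rose and 2 fell into pre-HSCs, 7 rose and 2 fell into FL HSCs, and 3 rose and 1 fell into BM HSCs. The counts of these lists stand beside 13.4% of all genes that rose and 10.3% that fell into pre-HSCs, 21.5% and 18.6% into FL HSCs, and 9.74% and 9.65% into BM HSCs. Pdcd4, an inhibitor of the eIF4A helicase, rose at each of these steps and was measured in Endo at 10.1 and 12.8 FPKM, in HE at 12.4 and 17, in pre-HSCs at 34.9, 35.3 and 27.3, in FL HSCs at 72.9 and 83.1 and in BM HSCs at 343 and 358. Every population from pre-HSCs onward was above the one before it without overlap, and from HE to BM HSCs the log2 fold change was 4.50 (SE 0.19, limma's adjusted p = 7.74e-08). Deptor, an inhibitor of mTOR, rose at the same 3 steps from 0.114 and 0.4 FPKM in HE to 9.93 and 7.06 in BM HSCs. Rptor, a subunit of mTOR complex 1, was at 25.5 and 25.6 FPKM in FL HSCs and at 9.17 to 14.1 in all other libraries. It rose into FL HSCs (0.84) and fell into BM HSCs (-0.91), at limma's adjusted p of 0.00241 and 0.0079. Ddit4, an mTOR inhibitor induced by stress, fell into FL HSCs by 2.84 on the log2 scale (limma's adjusted p = 2.25e-05).

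Of 19 tested genes of the integrated stress response, the program that follows phosphorylation of eIF2, 3 rose and 3 fell into pre-HSCs, 7 rose and 2 fell into FL HSCs, and 2 rose and 5 fell into BM HSCs, against 13.4% of all genes that rose and 10.3% that fell into pre-HSCs, 21.5% and 18.6% into FL HSCs, and 9.74% and 9.65% into BM HSCs. Asns, asparagine synthetase, was measured in Endo at 39.5 and 42.3 FPKM, in HE at 31.9 and 27.7, in pre-HSCs at 14, 17.4 and 18.9, in FL HSCs at 81.8 and 64.9 and in BM HSCs at 21.5 and 24. Its pre-HSC libraries were the lowest and its FL HSC libraries the highest, and it fell (-0.80), rose (2.07) and fell again (-1.64), at limma's adjusted p of 0.00639, 5.02e-06 and 0.00031. Aars, alanyl-tRNA synthetase, moved in the same 3 directions. Phgdh and Psat1, of serine synthesis, rose into FL HSCs by 2.17 and 1.32 and fell into BM HSCs by 0.93 and 1.01 on the log2 scale. Ppp1r15a (GADD34), which directs the phosphatase that reverses eIF2 phosphorylation, moved the other way and was measured in Endo at 26.4 and 19.5 FPKM, in HE at 23.3 and 18.1, in pre-HSCs at 53.2, 61.4 and 71.9, in FL HSCs at 12.7 and 11.5 and in BM HSCs at 119 and 38.9. The log2 fold changes were 1.54, -2.26 and 2.40, and BM HSC 1 was far above BM HSC 2. Atf4, whose translation the response favors, passed in no comparison at the level of mRNA.

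Of 20 mRNA-binding partners of initiation, 2 rose into pre-HSCs, 6 rose and 2 fell into FL HSCs, and 2 rose and 1 fell into BM HSCs, where the shares of all genes that rose were 13.4%, 21.5% and 9.74% and those that fell 10.3%, 18.6% and 9.65%. Pabpc1, the poly(A)-binding protein that contacts eIF4G, was measured in Endo at 484 and 661 FPKM, in HE at 388 and 466, in pre-HSCs at 653, 701 and 567, in FL HSCs at 1577 and 1429 and in BM HSCs at 1159 and 1440.1. The FL and BM HSC libraries were all above the rest, with a rise into FL HSCs of 1.23 (SE 0.19, limma's adjusted p = 0.000484). Cyfip1 and Cyfip2, of which the first can hold eIF4E in a repressed complex, moved in opposite directions into FL HSCs, at -1.60 and 2.62 on the log2 scale (limma's adjusted p = 8.62e-06 and 3.77e-06). Of 17 elongation and termination factors, 3 fell into pre-HSCs, 6 rose into FL HSCs, and 1 rose and 2 fell into BM HSCs, with the same shares of all genes.

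Myc and Mycn, transcription factors known to drive genes of the translation machinery, were among 8 upstream genes. Of these, 3 rose (Myc, Mxd1 and Mxd4) and 1 fell (Mycl1) into pre-HSCs. Into FL HSCs 4 rose (Myc, Mycn, Max and Mnt) and 2 fell (Mxd4 and Mycl1), and into BM HSCs 1 rose (Mxd4) and 0 fell. The shares of all genes that rose were 13.4%, 21.5% and 9.74%, and those that fell 10.3%, 18.6% and 9.65%. Myc was measured in Endo at 18.2 and 23.5 FPKM, in HE at 18.7 and 19.95, in pre-HSCs at 26, 34.2 and 28.6, in FL HSCs at 144 and 121 and in BM HSCs at 119 and 123. It rose into FL HSCs by 2.13 (SE 0.15, limma's adjusted p = 3.54e-06). Its BM HSC libraries remained near those of FL HSCs (-0.12, limma's adjusted p = 0.657). Mycn rose into FL HSCs by 1.60 (limma's adjusted p = 3.09e-05). Of 9 cell cycle genes, 1 fell into pre-HSCs, 3 rose into FL HSCs and 6 fell into BM HSCs (10.3%, 21.5% and 9.65% of all genes in these directions), their summed FPKM being 1001 to 1043 in pre-HSCs, 1251 to 1459 in FL HSCs and 864 to 883 in BM HSCs. The median log2 fold change of the 9 genes was -0.23 into pre-HSCs, 0.11 into FL HSCs and -0.94 into BM HSCs. Over all genes it was 0.09, 0.11 and 0. The sums moved in the directions of the initiation factor genes, and the part of the cell cycle genes in the changes was not tested.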

How the data were processed

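RNA-seq libraries of 5 sorted mouse populations (2, 2, 3, 2 and 2 libraries) were used as grouped by the sample titles. The authors aligned paired-end reads to mm9 with TopHat and kept unique reads with few mismatches. Genes were those of Ensembl. Cufflinks, featureCounts, Subread and edgeR appear in the submitters' processing notes, without versions. The authors deposited FPKM values per gene and library. The sources used here do not give the tool that computed them. The study's own test was run on counts with edgeR, which FPKM does not allow, so limma replaced it with the same order of steps (F test, then pairs). Depth per library is therefore unknown.

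Symbols and positions came from GENCODE M1 (NCBIM37, which is mm9), which held 37038 of the 37820 gene IDs (97.9%). Log2 of FPKM plus a pseudocount of 1 was modelled by population in the 11 libraries with the lmFit and trended eBayes functions of limma 3.58.1 (R 4.3.3), without covariates, for genes that reached 1 FPKM in 2 or more libraries. P-values were adjusted by Benjamini-Hochberg over the 14708 genes tested within a contrast. Fold changes on this scale understate those of low genes. All populations share 1 estimate of the spread. Where nothing states that libraries came from separate animals, p-values measure the spread between pools. Ratios of 2 genes within a library were tested by an exact permutation of F over the 415800 assignments of libraries, adjusted over 11 ratios, and that of Eif4e3 to Eif4e was left out because Eif4e3 is listed at 0 in HE 1.

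Members are ordered by role. Full values are given for genes past the test with a 2-fold change, for the 6 largest changes in each comparison and for the genes of the ratios, and other genes named were chosen after their values were seen. The members and the gene lists were chosen with earlier results of these data known. Promoters (GRCm38.p6) came from RefSeq, with 42 of the 53 genes matched, and were not placed on mm9. The fit was tested on simulated data. Python 3.11.15 with pandas 2.3.3, numpy 2.4.6 and matplotlib 3.10.9 made tables and plots. Alternatives were other pseudocounts, filters and scalings, no F test, a stricter adjusted p, a block for the replicate number, fits of the compared pair alone and each library left out.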

Additional observations from a re-analysis of the deposited data

How the results depend on the processing

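The number of initiation factor genes past limma's test depended on the processing in each comparison that had any. From HE to pre-HSCs, 12 genes passed, and 7 did without a filter on low values, 3 at an adjusted p under 0.01 and 19 when the fit held just the pair compared. Over all genes 1978 rose and 1508 fell, against 1620 and 1399 without the filter. The counts of all genes were 1016 and 680 at the stricter p, and 2051 and 1801 with just the pair. From pre-HSCs to FL HSCs, 20 passed, and 11 did with FPKM scaled to equal totals, 13 after division by the median ratio and 12 at an adjusted p under 0.01. Over all genes 3162 rose and 2738 fell, against 2047 and 2933 with equal totals. The counts of all genes were 2295 and 3149 with the median ratio, and 2404 and 2287 at the stricter p. From FL to BM HSCs, 13 passed, and 8 did without the filter, 4 at an adjusted p under 0.01 and 0 when it held just that pair. In that last fit 0 of all genes passed. With every library in the fit 1432 of all genes rose and 1420 fell here. The counts of all genes were 1207 and 1194 without the filter, and 720 and 739 at the stricter p. The filter alters the number of genes tested and the stricter p the threshold itself, whereas the cause of the other shifts was not tested. With 1 library left out the counts ranged from 2 to 13, from 12 to 19 and from 2 to 19, and from 9 to 21 between HE and BM HSCs. Between Endo and HE 0 passed in any of these. Without the F test step, 2 of the 51 genes rose and 12 fell into pre-HSCs, and 27 rose and 2 fell into FL HSCs. Into BM HSCs 0 rose and 17 fell. In the same order, all genes without that step gave 2267 and 1714, 4055 and 3290, and 1670 and 1706.

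Of 20 pairs of libraries with equal replicate numbers, 8 had deviations from their population means that correlated over 0.1, and all lay between -0.16 and 0.16. Among Endo, HE and FL HSCs 6 of 6 such pairs did, at 0.12 to 0.16, whereas over all populations the numbers did not pair the libraries. In populations of 2 libraries the deviations mirror each other. The 2 pairs between such populations therefore hold the same value and are not independent. In fits that took the replicate number as block, 8, 16, 9 and 15 genes passed in the 4 comparisons from HE onward in the order above, and 0 between Endo and HE. In the same order, all genes with the block gave 1661 higher and 1157 lower, 2709 and 2406, 1360 and 1289, and 3693 and 2985. Without the block they gave 1978 and 1508, 3162 and 2738, 1432 and 1420, and 3938 and 3200.

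For the ratios of 2 genes, the log2 difference between the highest and the lowest population, with 1 library left out at a time, was 2.17 to 2.89 for Eif4a2 to Eif4a1, 1.37 to 1.99 for Eif4ebp2 to Eif4ebp1, 0.649 to 0.991 for Eif4ebp1 to Eif4e, 0.991 to 1.38 for Eif4g3 to Eif4g1, 0.788 to 1.17 for Eif4g2 to Eif4g1, 1.91 to 2.79 for Eif5a2 to Eif5a, 0.353 to 0.716 for Eif1b to Eif1, 1.03 to 1.57 for Eif5 to Eif1, 1.67 to 3.78 for Eif2s3y to Eif2s3x, 0.599 to 0.981 for Eif4e2 to Eif4e and 0.755 to 1.03 for Eif2b5 to Eif2s1.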
